A study of Homo sapiens with 12 samples.

Results

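The small nuclear RNA genes (names starting with RNU) and the Cajal body small RNA genes (SCARNA) were examined in HEK293T, an embryonic kidney cell line with a viral T antigen gene, after ERI2 siRNA or control siRNA. The RNA-seq table of 55765 gene names holds 1906 such names, of which 1291 had no count in any library. The 120 names with 60 or more raw counts summed over the 6 RNA-seq libraries are described here: 39 functional names (18 RNU and 21 SCARNA) and 81 names ending in P, the suffix of annotated pseudogenes. The members just inside the limit were RNU6-583P and RNU6ATAC35P with 60 counts each and RNU6-1330P with 63, and those just outside were RNU1-134P and RNU6-890P with 59 and RNU6-1283P with 58. Both groups, of 3 libraries each, received 50 nM siRNA with a second transfection 48 hours after the first, and a harvest 72 hours later. The 3 knockdown libraries came from cells given siRNA against ERI2, and the 3 control libraries from cells given a control siRNA. One ERI2 siRNA group and one cell line were used. The cell line label reads HEK293T, whereas the growth protocol names HEK293.

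Spliceosomal RNAs form the catalytic and recognition core of the machine that removes introns. U1 and U2 RNA mark the intron ends and the branch point, U4 RNA holds U6 RNA inactive until activation, U5 RNA aligns the exons, and U11, U12, U4atac and U6atac RNA take these roles on a rare class of introns. Most are short, capped, non-polyadenylated transcripts that acquire a ring of Sm proteins, while U6 and U6atac RNA are made by RNA polymerase III and carry LSm proteins. Small Cajal body RNAs guide ribose methylation (box C/D) or pseudouridylation (box H/ACA) of the spliceosomal RNAs, and most are cut out of introns of other genes. ERI2 belongs to a family of exonucleases, and enzymes of this class trim the ends of several small RNAs.

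RNA-seq libraries held 29143596 to 32646277 counts in the knockdown group and 30099367 to 38306631 in the control group. ERI2 mRNA fell to 34.6, 35.8 and 32.5 CPM (counts per 1e+06 counts, on TMM-scaled library sizes) in the knockdown libraries, against 54.4, 58.2 and 54.4 CPM in the control libraries (log2 fold change -0.70, SE 0.0762; adjusted p = 0.000683 by edgeR's quasi-likelihood test, with the method of Benjamini and Hochberg over all tested genes). Nothing in the labels says that replicates were separate cultures, so every p-value here rests on variation among libraries, which may be technical. Chi-square over degrees of freedom between libraries of a group was 14.9 to 25.5 for pairs with a replicate 1 library, against 5.07 (knockdown) and 14.3 (control) for replicates 2 and 3. Markers of HEK293 lines (NEFL, NEFM, INA, VIM and PAX2) were detected in every library and summed to 714 to 903 CPM in the knockdown group and 920 to 1055 CPM in the control group. Most of this sum was VIM, at 668 to 849 CPM in the knockdown group and 860 to 985 CPM in the control group. PAX2 ranged from 0.49 to 1.32 CPM over all libraries, with a log2 fold change of 0.44 (edgeR, adjusted p = 0.454). Summed markers of epithelial lines ranged from 5.18 to 5.76 CPM in the knockdown group and from 7.99 to 8.71 CPM in the control group, and those of blood cells from 1.39 to 1.78 CPM in the knockdown group and from 1.70 to 2.51 CPM in the control group. Summed fibroblast markers ranged from 13.5 to 17.8 CPM in the knockdown group and from 15.6 to 18.6 CPM in the control group, and KRT5 and COL1A2 were at 0 in every library, with PTPRC at 0 in 4 of them. Of single markers, NEFL, INA, CDH1, EPCAM and COL3A1 fell, with log2 fold changes of -0.50, -0.49, -0.53, -1.04 and -1.05 (edgeR, adjusted p from 0.0099 to 0.0345), and COL1A1 was at 0.31 (adjusted p = 0.152). The part of these markers in the results was not tested. In bulk RNA, fewer cells that make an RNA and less of it per cell cannot be told apart.

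Functional small RNA names were mostly lower after ERI2 knockdown. Of the 38 functional members that passed the filter on low counts, 7 fell and 1 rose at an adjusted p under 0.05. Falls made up 18.4% of these members, against 4.25% of all 18843 tested genes, and rises 2.63% against 4.29%. The falls were RNU5F-1, RNU5E-1, RNU6-1, SCARNA1, SCARNA10, SCARNA21 and SCARNA13, and the rise was SCARNA2. The median log2 fold change was -0.23 over the functional members and 0.003 over all tested genes. In 14 of the 39 functional members every knockdown library lay below every control library, and in 1 every knockdown library lay above, while groups were separated in 29.7% of all tested genes, 15.6% below and 14.1% above. The number of falls was 12 without knockdown replicate 1 and from 5 to 7 without any other single library. Without knockdown replicate 1, 6.81% of all tested genes fell, against 4.25% with all libraries. The 1 rise ended without knockdown replicate 2 or 3 or without control replicate 1 or 2.

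**Figure D1:**
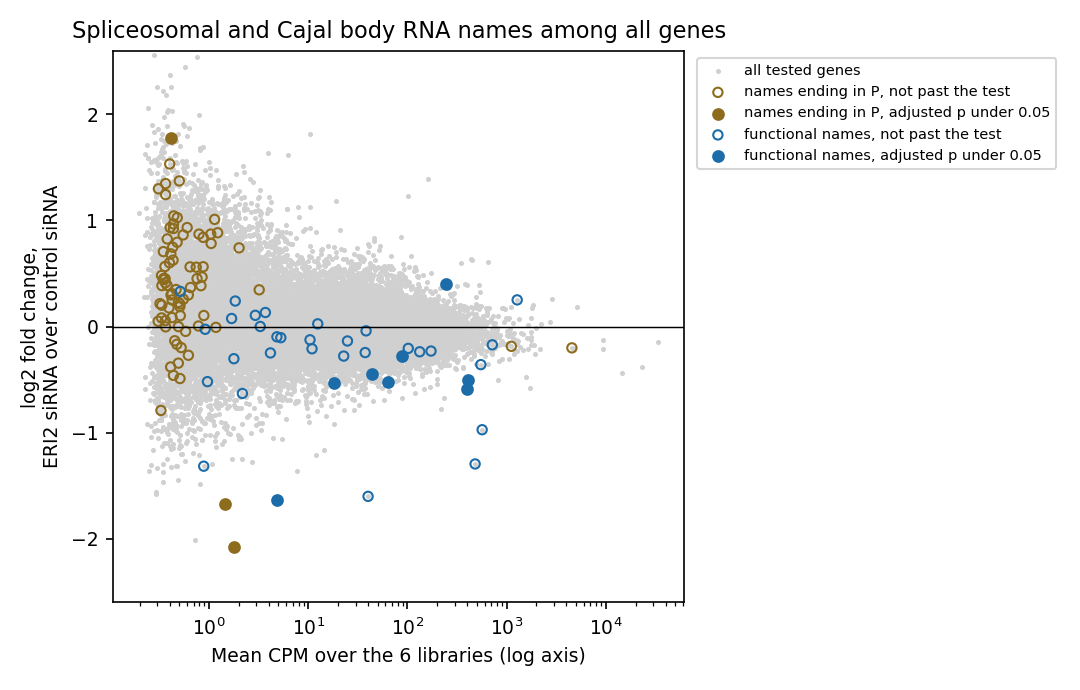
Log2 fold change of ERI2 siRNA over control siRNA against mean CPM over the 6 libraries (log axis) for all tested genes (grey), functional small RNA names (blue) and names ending in P (brown), with filled symbols for an adjusted p under 0.05 and 4 other genes outside the plotted range. The functional names lie mostly below 0, and the names ending in P, other than RNU2-59P and RNU2-6P, lie at low levels and mostly above 0.

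All 5 functional U5 names had a lower mean after knockdown, and 2 of them passed the test, but their levels also varied between libraries of one group. RNU5A-1 measured 157, 508 and 482 CPM in the knockdown libraries, against 862, 676 and 714 CPM in the control libraries. Every knockdown library lay below every control library, and knockdown replicate 1 lay far below the other libraries of its group. The mean was 51.0% of the control mean (log2 fold change -0.97, SE 0.490; edgeR, adjusted p = 0.295), and without knockdown replicate 1 the gene passed the test with a log2 fold change of -0.61 (adjusted p = 0.0024, edgeR). RNU5B-1, its neighbour in the genome, measured 81.1, 405 and 350 CPM in knockdown libraries, against 936, 703 and 413 CPM in control libraries, and did not pass (log2 fold change -1.29, SE 0.729; edgeR, adjusted p = 0.349). Here the groups were separated, but control replicate 3 came close to knockdown replicate 2.

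RNU5E-1 fell to 242, 365 and 355 CPM after knockdown, against 523, 446 and 482 CPM in control libraries (log2 fold change -0.59, SE 0.130; edgeR, adjusted p = 0.0151). The call ended without control replicate 3 (adjusted p = 0.0607, edgeR) and under scaling by total library size (adjusted p = 0.0845, edgeR). RNU5F-1, a rarer U5 variant gene, fell to 2.95, 2.26 and 1.98 CPM in knockdown libraries, against 8.70, 9.45 and 3.97 CPM in control libraries (log2 fold change -1.63, SE 0.272; edgeR, adjusted p = 0.00516). It kept its call without any 1 library. ARMH1 (C1orf228 in the table), the gene around it, had a log2 fold change of 0.04 (edgeR, adjusted p = 0.941). RNU5D-1, the neighbour of RNU5F-1, had 5.20, 35.0 and 19.5 CPM in knockdown libraries, against 84.9, 74.5 and 21.5 CPM in control libraries, and the groups overlapped (log2 fold change -1.60, SE 0.890; edgeR, adjusted p = 0.344).

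Summed over the 5 functional names, U5 RNA measured 488, 1315 and 1209.7 CPM in knockdown libraries, against 2414, 1909 and 1635 CPM in control libraries, a mean of 1004 ± 450 against 1986 ± 395 CPM (SD, n = 3 each). The makeup of this sum differed too: RNU5E-1 took 49.5% of the U5 counts in knockdown replicate 1, against 27.7% and 29.4% in the other knockdown libraries and 21.7% to 29.5% in control libraries. Both U5 pseudogenes among the members fell as well. RNU5A-8P had 22, 38 and 7 raw counts in knockdown libraries, against 120, 157 and 31 in control libraries (log2 fold change -2.08, SE 0.493; edgeR, adjusted p = 0.0239). RNU5E-4P, which lies beside RNU5E-1, had 31, 23 and 13 counts, against 91, 108 and 33 in control libraries (log2 fold change -1.68, SE 0.361; edgeR, adjusted p = 0.0142). In both, control replicate 3 was the lowest control library, and for RNU5A-8P its CPM lay within the knockdown range. RNU5A-8P lies inside HHAT, an acyltransferase gene (log2 fold change -0.27; edgeR, adjusted p = 0.129). RNU5A-8P lost its call without knockdown replicate 1 (adjusted p = 0.137, edgeR) or 3 (0.0691) or control replicate 1 (0.0516) or 2 (0.0765). RNU5E-4P lost its call without knockdown replicate 2 (adjusted p = 0.0561, edgeR) or 3 (0.0576) or control replicate 2 (0.0615). U5 copies are alike in sequence, so reads of one may be counted under another, and these 7 names are not independent.

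**Figure D2:**
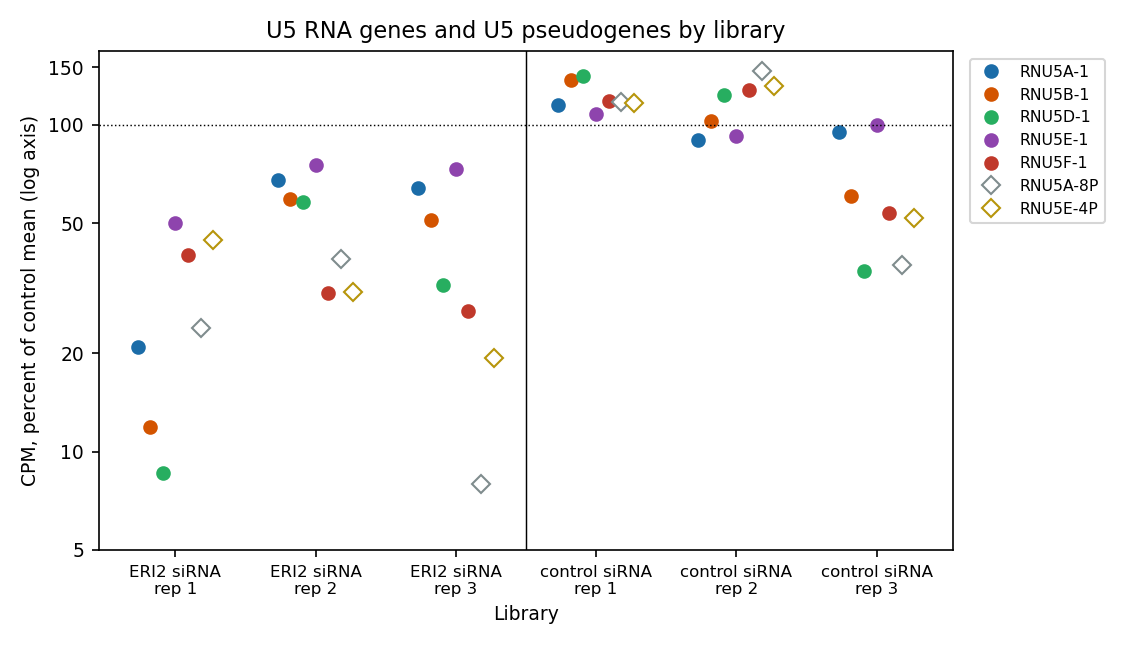
CPM of the 5 functional U5 genes (circles) and 2 U5 pseudogenes (diamonds) in each library, as percent of the control mean on a log axis, with the knockdown libraries left and the control libraries right of the vertical line. All 7 names lie below 100% in every knockdown library, with RNU5A-1, RNU5B-1, RNU5D-1 and RNU5E-1 lowest in knockdown replicate 1, and several names are also low in control replicate 3.

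The U4 RNA genes did not pass the test, and RNU4-2 was set apart by a single control library. RNU4-2 measured 1371, 1488 and 1309 CPM in knockdown libraries, against 77.9, 1449.5 and 1973 CPM in control libraries. Control replicate 1 held 2739 raw counts, whereas the other 5 libraries held from 39664 to 56620. The fitted log2 fold change was 0.25 (SE 1.13; edgeR, adjusted p = 0.918) and turned to -0.30 without control replicate 1 (adjusted p = 0.113, edgeR). RNU4-1, the neighbouring copy, measured 680, 710 and 635 CPM in knockdown libraries, against 754, 667 and 861 CPM in control libraries, with overlapping groups (log2 fold change -0.17, SE 0.104; edgeR, adjusted p = 0.310). RNU4-2 had 2.015, 2.095 and 2.06 counts per RNU4-1 count in knockdown libraries, against 0.103, 2.17 and 2.29 in control libraries, so the ratio was close to steady in 5 libraries and low in control replicate 1 alone. Both U4 genes are near-identical, and how reads were divided between them was not given in the sources used here. RNU4-1 lies inside SIRT4, a mitochondrial sirtuin gene (log2 fold change 0.27; edgeR, adjusted p = 0.535), and RNU4-2 inside no annotated gene.

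**Figure D3:**
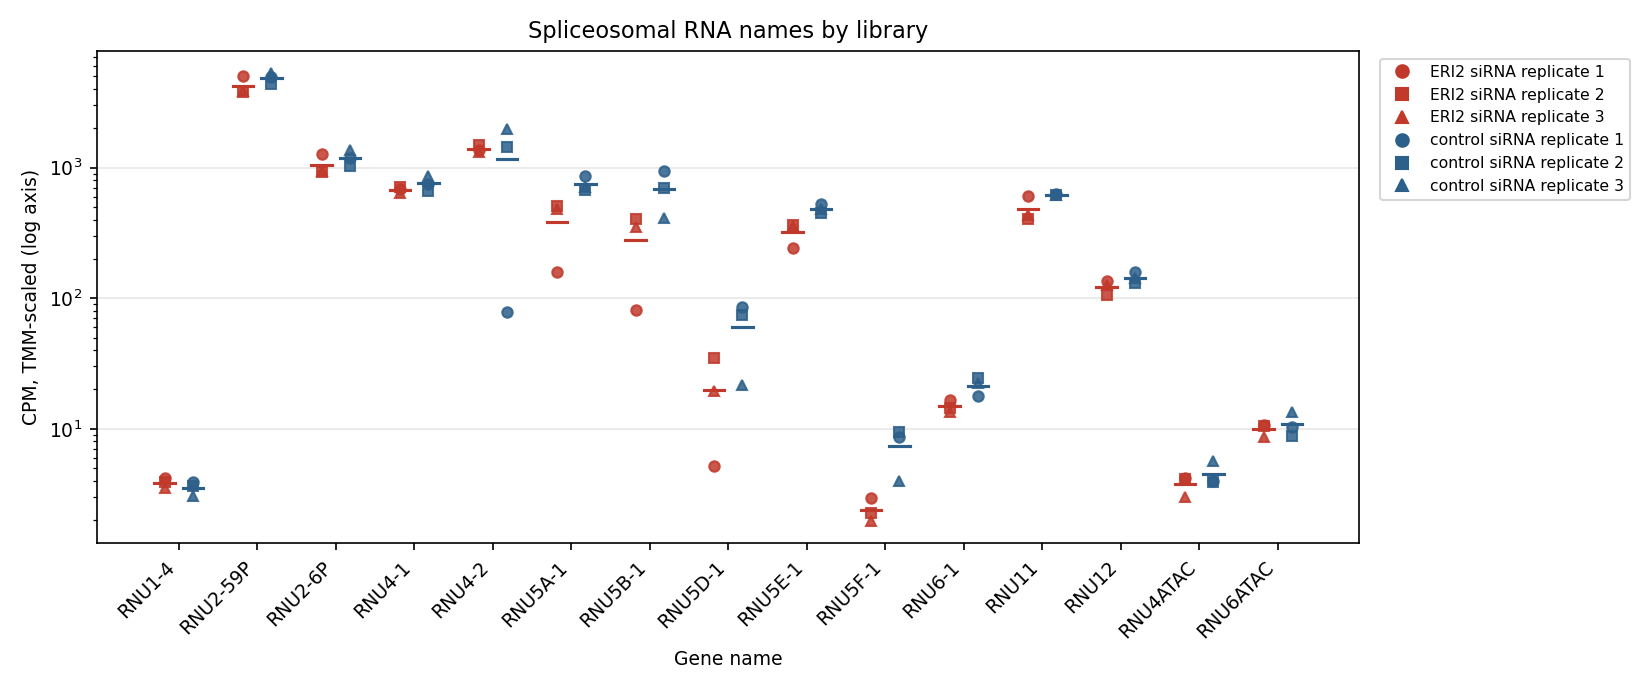
CPM on a log axis for 15 spliceosomal RNA names in each of the 3 knockdown (red) and 3 control (blue) libraries, with symbols by replicate number and a line at each group mean. Control replicate 1 lies far below the others at RNU4-2, and knockdown replicate 1 lies lowest at RNU5A-1, RNU5B-1, RNU5D-1 and RNU5E-1.

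Under U2 names, most counts stood with 2 names ending in P. RNU2-59P, inside the BTRC gene, had 159293, 127934 and 117005 raw counts in knockdown libraries, against 172778, 162669 and 151817 in control libraries, the highest count of all members. RNU2-6P, inside RUBCNL (KIAA0226L in the table), had 39927, 31307 and 28407 counts in knockdown libraries, against 41329, 38226 and 38848 in control libraries. Neither passed the test, with log2 fold changes of -0.20 (SE 0.140; edgeR, adjusted p = 0.385) and -0.19 (SE 0.134; edgeR, adjusted p = 0.405). With replicates 2 and 3 alone both were lower, at -0.34 and -0.36 (edgeR, adjusted p of 0.0042 and 0.0173). The host genes did not pass either, with log2 fold changes of 0.04 for BTRC, a ubiquitin ligase subunit, and -0.24 for KIAA0226L. RNU2-2P, now annotated as the functional gene RNU2-2, had 0 counts in every library, and RNU2-1 was not analysed here. Whether reads under RNU2-59P and RNU2-6P came from those places or from functional U2 genes was not tested.

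U1 RNA, made from many near-identical genes, was counted thinly. RNU1-4 had 133, 132 and 106 raw counts in knockdown libraries, against 138, 134 and 87 in control libraries, and RNU1-1 had 25, 19 and 11, against 15, 18 and 13. RNU1-3 had 0 counts in every library and RNU1-2 had 36 in all. Neither RNU1-4 (log2 fold change 0.13; edgeR, adjusted p = 0.654) nor RNU1-1 (0.33; adjusted p = 0.620) passed, and so few counts say little of U1 RNA itself. By default, HTSeq leaves out reads that align to several places, and its use in this table was not tested.

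Of the U6 genes, RNU6-1 fell to 16.5, 14.5 and 13.5 CPM in knockdown libraries, against 17.8, 24.3 and 22.2 CPM in control libraries (log2 fold change -0.53, SE 0.120; edgeR, adjusted p = 0.0173). The groups did not overlap, though knockdown replicate 1 and control replicate 1 lay close together. The call ended without knockdown replicate 2 (adjusted p = 0.0702, edgeR) or 3 (0.0793) or control replicate 2 (0.0747) or 3 (0.0738). The other functional U6 members had under 100 counts in any library. RNU6-7 had 54, 37 and 60 counts after knockdown, against 45, 86 and 66 in control libraries. RNU6-8, its neighbour, had 95, 43 and 51, against 58, 53 and 57, and RNU6-2 had 43, 23 and 20, against 23, 30 and 38. None of these 3 passed (edgeR, adjusted p of 0.530, 0.641 and 0.974), and the groups overlapped in each. RNU7-1, the RNA that guides histone pre-mRNA cleavage, had 1 count in all libraries together. The separate name U7, outside the rule that chose the members, had 118.

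The RNAs of the minor spliceosome had lower means after knockdown, and none passed the main edgeR test, with all libraries and the filter on low counts. RNU11 measured 608, 403 and 435 CPM in knockdown libraries, against 623, 616 and 615 CPM in control libraries. All knockdown values lay below all control values, but knockdown replicate 1 lay near the control level (log2 fold change -0.36, SE 0.126; edgeR, adjusted p = 0.0896). Without that library RNU11 passed, at -0.57 (adjusted p = 0.00127, edgeR), and it also passed under DESeq2 with all libraries (adjusted p = 0.0242). RNU12 measured 135, 106 and 125 CPM in knockdown libraries, against 158, 130 and 144 CPM in control libraries, with overlapping groups (log2 fold change -0.24, SE 0.0947; edgeR, adjusted p = 0.127). It passed without knockdown replicate 1 at -0.33 (adjusted p = 0.0265, edgeR). With all libraries and no filter on low counts, RNU11 and RNU12 passed at -0.37 and -0.25 (edgeR, adjusted p of 0.00319 and 0.0456). RNU4ATAC measured 4.21, 4.16 and 3.003 CPM, against 3.98, 3.94 and 5.68 CPM in control libraries, and RNU6ATAC 10.7, 10.6 and 8.61 CPM, against 10.3, 8.83 and 13.6 CPM. For these 2 names the groups overlapped (edgeR, adjusted p of 0.439 and 0.641). RNU105B, annotated as a nucleolar RNA despite its name, had 9, 23 and 18 counts after knockdown, against 7, 11 and 2 in control libraries. With all libraries it did not pass the filter on low counts. Without knockdown replicate 1, and with replicates 2 and 3 alone, it was tested and passed as a rise (edgeR, adjusted p under 0.05). In both settings it passed the filter only through the knockdown libraries, where it was higher. With replicates 2 and 3 alone it was the only functional rise.

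Among the Cajal body RNAs, 4 of 21 fell and 1 rose. SCARNA10, which carries both guide types and directs modification of U5 RNA, fell to 349, 323 and 332 CPM in knockdown libraries, against 509, 450 and 464 CPM in control libraries (log2 fold change -0.50, SE 0.0816; edgeR, adjusted p = 0.00496). SCARNA1, an H/ACA guide for U2 RNA, fell to 52.2, 51.6 and 54.6 CPM, against 82.8, 70.3 and 75.0 CPM in control libraries (log2 fold change -0.53, SE 0.0772; edgeR, adjusted p = 0.00294). SCARNA21, an H/ACA guide for U12 RNA, fell to 34.0, 37.4 and 39.3 CPM, against 53.1, 45.6 and 52.0 CPM in control libraries (log2 fold change -0.45, SE 0.0863; edgeR, adjusted p = 0.00968). In these 3 genes the groups stood clearly apart, and each kept its call without any 1 library and with replicates 2 and 3 alone.

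SCARNA13, a tandem H/ACA guide for U2 and U5 RNA, fell to 83.4, 76.7 and 77.2 CPM in knockdown libraries, against 98.4, 86.3 and 102 CPM in control libraries (log2 fold change -0.27, SE 0.0780; edgeR, adjusted p = 0.0447). The separation was narrow, and the call ended without knockdown replicate 2 (adjusted p = 0.170, edgeR) or 3 (0.158) or control replicate 1 (0.0661) or 3 (0.168), and under total library size (0.0909). SCARNA2, a box C/D guide for U2 RNA that is transcribed from its own promoter, rose to 277, 269 and 285 CPM in knockdown libraries, against 199, 170 and 260 CPM in control libraries (log2 fold change 0.40, SE 0.118; edgeR, adjusted p = 0.0491). Control replicate 3 came close to the knockdown values. The call ended without knockdown replicate 2 (adjusted p = 0.111, edgeR) or 3 (0.145) or control replicate 1 (0.0748) or 2 (0.171), and with replicates 2 and 3 alone (0.403).

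The other 16 Cajal body RNAs did not pass, and 12 of them had negative log2 fold changes. SCARNA7, a box C/D guide for U1 RNA, measured 161, 158 and 158 CPM in knockdown libraries, against 198, 187 and 175 CPM in control libraries (log2 fold change -0.23, SE 0.0708; edgeR, adjusted p = 0.0579). It passed without knockdown replicate 1 (adjusted p = 0.0483, edgeR) and under DESeq2 (adjusted p = 0.0223). SCARNA5 and SCARNA6, which lie in introns of one gene, ATG16L1, had log2 fold changes of -0.21 and -0.24 (edgeR, adjusted p of 0.138 and 0.0810). SCARNA6 measured 32.9, 34.0 and 36.1 CPM after knockdown, against 41.8, 37.2 and 43.2 CPM in control libraries, without overlap, whereas SCARNA5 did overlap.

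SCARNA9, a tandem box C/D guide for U2 RNA, measured 33.0, 37.5 and 43.0 CPM in knockdown libraries, against 44.4, 35.5 and 36.6 CPM in control libraries. SCARNA15, an H/ACA guide for U2 RNA, measured 12.3, 12.3 and 13.2 CPM, against 13.5, 12.97 and 10.6 CPM in control libraries. Both had overlapping groups and log2 fold changes of -0.04 (SE 0.108) and 0.03 (SE 0.112). SCARNA12, SCARNA22, SCARNA4, SCARNA3 and SCARNA8 had log2 fold changes from -0.28 to -0.10, and SCARNA17, SCARNA20 and SCARNA18 from 0.001 to 0.11, all with overlapping groups. SCARNA22 passed without control replicate 2 (log2 fold change -0.43; edgeR, adjusted p = 0.0384).

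Lower-count members varied more. SCARNA23 had 7, 24 and 18 counts in knockdown libraries, against 63, 53 and 16 in control libraries (log2 fold change -1.32, SE 0.444; edgeR, adjusted p = 0.0794), and passed without control replicate 3 (-1.66; adjusted p = 0.0493, edgeR). Control replicate 3 lay among the knockdown values, as it did for RNU5D-1. SCARNA11, an H/ACA guide for U5 RNA, had 67, 54 and 42 counts, against 96, 99 and 72 in control libraries (log2 fold change -0.63, SE 0.212; edgeR, adjusted p = 0.0788), and passed without knockdown replicate 1 (-0.83; adjusted p = 0.0247, edgeR). SCARNA14 had 25, 27 and 24 counts, against 42, 47 and 27 in control libraries (log2 fold change -0.52; edgeR, adjusted p = 0.246).

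The genes that surround the Cajal body RNAs did not show the same falls in the test. Of 21 members, 20 lie inside another annotated gene and 18 inside one that was tested, 17 genes in all, of which none passed (edgeR; log2 fold changes from -0.19 to 0.22). NCAPD2, a condensin subunit that holds SCARNA10, had a log2 fold change of -0.07 (SE 0.0830; edgeR, adjusted p = 0.652), and PPP1R8, a phosphatase inhibitor that holds SCARNA1, -0.16 (SE 0.0778; adjusted p = 0.202). CHD3, a chromatin remodeller that holds SCARNA21, had -0.19 (SE 0.0670; edgeR, adjusted p = 0.0883), and the noncoding gene SNHG10, which holds SCARNA13, 0.05 (SE 0.101; adjusted p = 0.780). In 15 of the 18 cases the small RNA had a lower log2 fold change than the gene around it, and the difference within each case was not tested. Reads of an intron-held RNA can also fall within its host, so the paired values are not fully independent.

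**Figure D4:**
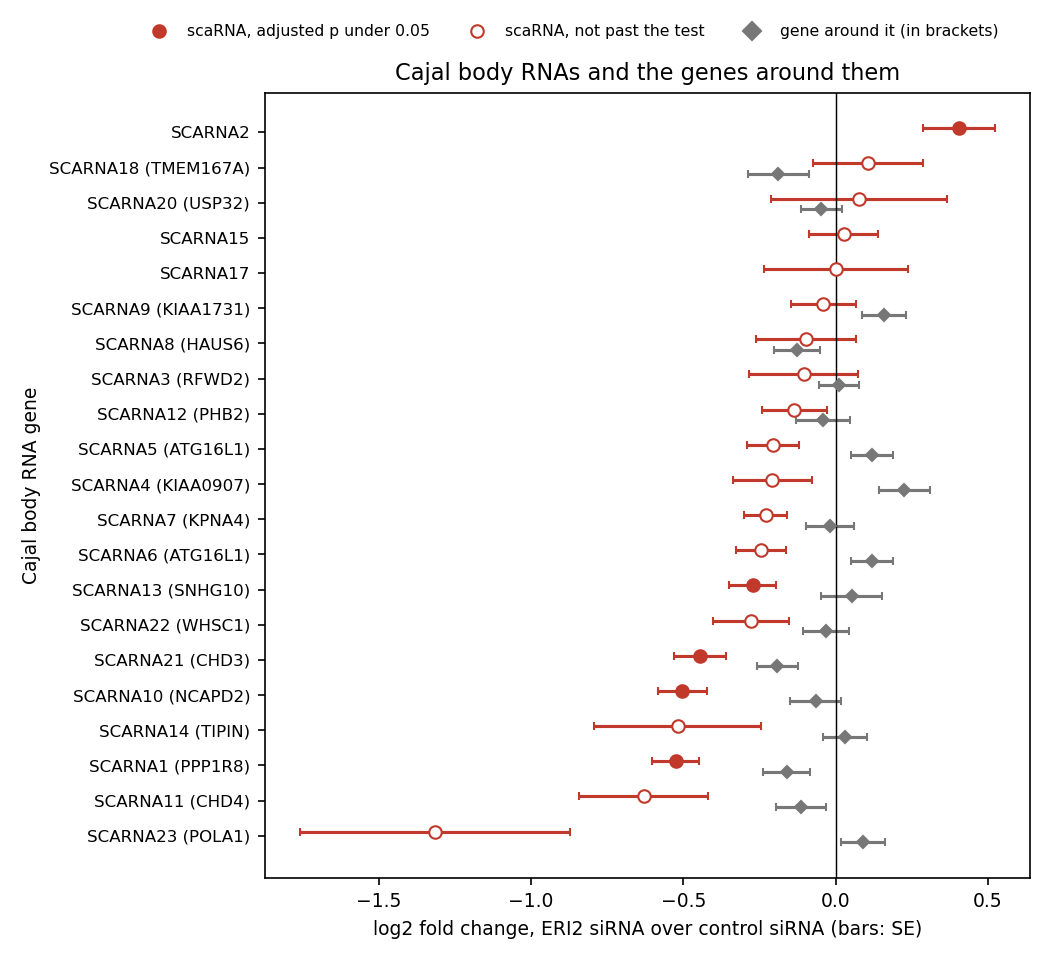
Log2 fold change of ERI2 siRNA over control siRNA with its SE for the 21 Cajal body RNAs (red circles, filled for an adjusted p under 0.05) and for the tested gene around each (grey diamonds, named in brackets). SCARNA10, SCARNA1, SCARNA21 and SCARNA13 lie below 0, SCARNA2 above, and the surrounding genes lie between -0.19 and 0.22.

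The names ending in P, other than RNU2-59P and RNU2-6P, were thinly counted, and 3 of 77 tested passed: the U5 pseudogenes RNU5A-8P and RNU5E-4P, which fell, and RNU6-503P, which rose. Every one of these 77 averaged under 5 CPM. Among the 7059 tested genes at that level 4.14% rose and 0.935% fell. RNU6-503P rose to 27, 17 and 18 counts in knockdown libraries, against 9, 8 and 2 in control libraries (log2 fold change 1.78, SE 0.466; edgeR, adjusted p = 0.0319). It lies inside SLC44A5, which fell (log2 fold change -0.31, SE 0.0661; edgeR, adjusted p = 0.0142). The call was lost without any single knockdown library (adjusted p from 0.0607 to 0.0904, edgeR) or without control replicate 2 (0.0851) or 3 (0.124). In each control library RNU6-503P lay under the level of the filter, so it entered the test only through the knockdown libraries, where it was higher.

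Fold changes of these 77 names were mostly above 0, in 62 of them, with a median of 0.39. Tested genes under 5 CPM had a median of 0.15, with 62.4% above 0. In 20 of the 81 names ending in P every knockdown library lay above every control library, and in 1 below. Separation of this kind occurred in 17.2% of tested genes under 5 CPM above and 7.86% below. For the 77 names, the median log2 difference between same-numbered libraries was 0.22 in replicate 1, 0.51 in replicate 2 and 0.67 in replicate 3. The numbers were not read as pairs, and these values were not set against other low-count genes. Next in count after both U2 names were RNU1-85P, with 145, 122 and 77 counts in knockdown libraries, against 88, 109 and 87 in control libraries, and RNU6-1016P, with 76, 70 and 94, against 67, 59 and 28. Neither passed (edgeR, adjusted p of 0.318 and 0.0855). The U6 pseudogenes, 53 of those tested, had a median of 0.41 and 1 rise. Of all 81 names ending in P, 67 lie inside another annotated gene. Since strand use is not given, their reads cannot be told apart from reads of that gene.

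The 18 functional RNU names summed to 3325, 4059.5 and 3747.5 CPM in knockdown libraries, against 4067, 4817 and 5278 CPM in control libraries. The 21 SCARNA names summed to 1204, 1169.5 and 1209 CPM in knockdown libraries, against 1452, 1263 and 1424 CPM in control libraries. The 79 names ending in P, without both U2 names, summed to 50.3, 51.6 and 57.9 CPM in knockdown libraries, against 47.9, 43.1 and 37.0 CPM in control libraries. With RNU2-59P and RNU2-6P included, the 81 names summed to 6362, 4778 and 4856 CPM in knockdown libraries, against 6137, 5470 and 6682 CPM in control libraries, with overlapping groups and a lower mean after knockdown. The other 3 sets of sums separated the groups, each with a narrow margin, and no test was made of a sum. The RNU sum of control replicate 1 lacks most of RNU4-2.

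**Figure D5:**
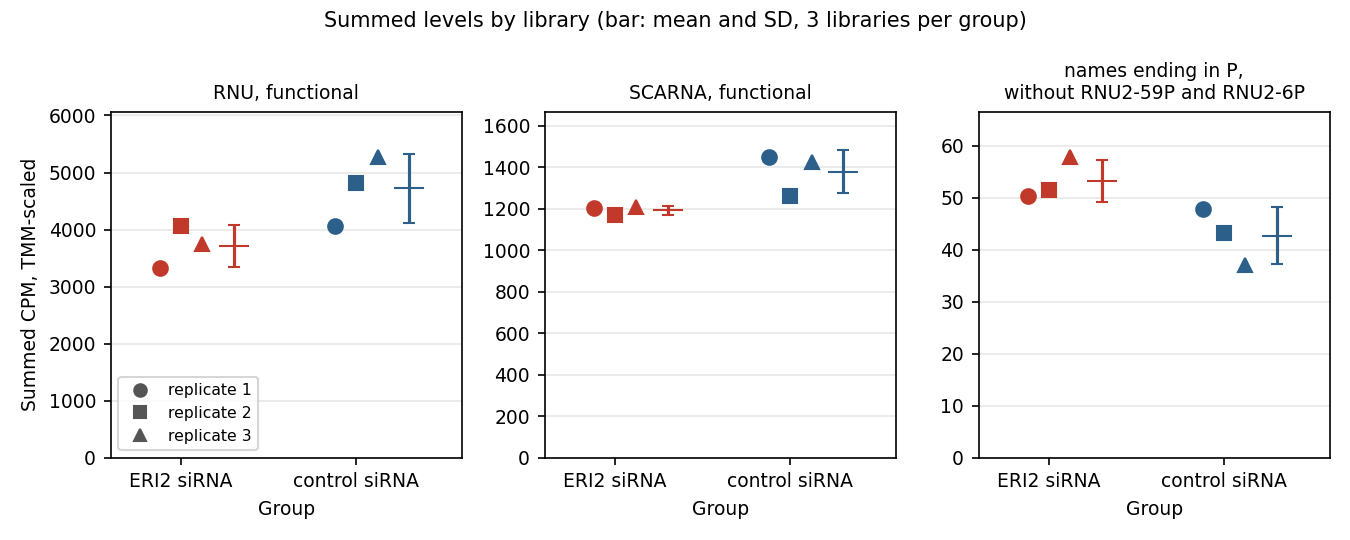
Summed CPM per library for functional RNU names, functional SCARNA names and names ending in P without RNU2-59P and RNU2-6P, with the mean and SD of 3 libraries beside each group. Knockdown libraries (red, left) lie below control libraries (blue, right) in the first 2 panels and above them in the third.

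With all libraries, few genes for the proteins that build and modify these RNAs passed the test. Of 125 tested genes in 13 lists, 6 rose and 1 fell (5.60% called, against 8.54% of all tested genes), and the fall was ERI2 itself. With replicates 2 and 3 alone, 19.2% were lower and 7.2% higher, against 14.1% and 13.9% of all tested genes. SNRNP70, the main protein of the U1 particle, rose to 301, 339 and 337 CPM in knockdown libraries, against 274, 249 and 261 CPM in control libraries (log2 fold change 0.32, SE 0.0792; edgeR, adjusted p = 0.027). SF3A2, a U2 particle subunit, rose by 0.53 and no longer passed under total library size. Among genes acting on snRNA transcription and end formation, SNAPC4, the largest subunit of the snRNA promoter complex, rose by 0.53, and the Integrator subunits INTS1 and CPSF3L by 0.51 and 0.27. NOP58, a core protein of box C/D particles, rose to 190, 160 and 176 CPM, against 135, 144 and 129 CPM in control libraries. Rises made up 4.8% of the 125 genes with all libraries, against 4.29% of all tested genes. Their share was 1.6% without knockdown replicate 2 or control replicate 2. It was 0.8% without replicate 3 of either group and with the replicate block. In those settings 0.557% to 1.54% of all tested genes rose.

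The remaining lists held no gene past the test with all libraries (edgeR). That was 0 of 7 Sm ring genes, 0 of 6 LSm ring genes and 0 of 17 U4/U6 and U5 particle genes. It was also 0 of 8 minor spliceosome genes and 0 of 4 U7 particle genes. Of the 13 assembly genes of the SMN complex and the 7 export and import genes, 0 passed. The medians of these lists lay between -0.10 and 0.02. PRPF8, the U5 protein at the catalytic core, measured 878, 795 and 841 CPM in knockdown libraries, against 883, 976 and 937 CPM in control libraries (log2 fold change -0.15; edgeR, adjusted p = 0.307). COIL, the marker protein of the Cajal body, measured 71.0, 59.1 and 54.2 CPM, against 56.5, 65.0 and 62.8 CPM in control libraries, and WRAP53, which brings Cajal body RNAs to that body, 29.9, 26.7 and 26.5 CPM, against 25.99, 26.96 and 29.2 CPM. In both the groups overlapped. ERI1, a related exonuclease, measured 22.9, 26.5 and 22.9 CPM, against 27.8, 30.0 and 27.2 CPM in control libraries (log2 fold change -0.23; edgeR, adjusted p = 0.112).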

How the data were processed

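The authors deposited raw read counts per gene name for the 6 RNA-seq libraries, with unequal totals. The submitters' processing notes name genome build hg19 with HTSeq 0.6.1p1, TopHat2 2.0.10 and CASAVA 1.8.2 and state no role, and per the labels' protocols one TruSeq RNA kit was used. The sources used here do not state the strand setting, annotation release or treatment of multiply aligned reads. Recovery of short transcripts by such kits was not tested. The deposited miRNA table was not used here.

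After filterByExpr and TMM scaling, counts were tested over all 18843 genes with edgeR 4.0.16 (quasi-likelihood, robust, R 4.3.3), called at a Benjamini-Hochberg adjusted p under 0.05. SE is the absolute log2 fold change over the square root of F. The fit was tested on simulated data. Alternatives were DESeq2 1.42.0, RLE factors, total library size, no filter, a replicate block, leaving out each library, replicates 2 and 3 alone, and a limit of 600 counts. Genes around members were found by name and position in a RefSeq table (GRCh38.p14), where 118 of 120 members matched. That table gives no strand for the members, so the planned same-strand condition was not applied. Levels are not adjusted for length and are not compared between genes.

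Named are all functional members, names ending in P that passed or had the 5 highest counts or lay by the limit, ERI2, list genes with the smallest p and genes around members that passed. COIL and WRAP53 were added after values were seen. Members and lists were chosen with earlier results of these data known.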

Additional observations from a re-analysis of the deposited data

How the results depend on the processing

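No alternative scaling turned the direction of a member that passed. Of the 11 members past the test, 9 kept call and direction under DESeq2, 11 under RLE factors, 8 under total library size, 11 with no filter, 4 with the replicate block and 9 with replicates 2 and 3 alone. Functional falls numbered 7, but 9 under DESeq2 (RNU11 and SCARNA7 added), 10 with no filter, 5 under total library size and 12 with replicates 2 and 3 alone, where RNU5A-1, RNU11, RNU12, SCARNA7 and SCARNA11 were added to the 7. They numbered from 5 to 12 with 1 library left out, and functional rises from 0 to 2. Rises among names ending in P numbered 1, but 0 under DESeq2, 6 with no filter, 11 with replicates 2 and 3 alone, 0 at the limit of 600 counts and from 0 to 5 with 1 library left out. Falls among them numbered 2, but 1 under DESeq2, 1 under total library size, 0 at the limit of 600 counts and from 0 to 2 with 1 library left out. Over all genes, 809 rises and 800 falls became 1290 rises with no filter, 463 falls under total library size, and 2622 rises and 2670 falls with replicates 2 and 3 alone. Of the genes tested in each setting, 4.25% fell in the main test, 6.65% under DESeq2, 3.51% with no filter and 2.46% under total library size. Rises made up 4.29%, 5.46% under DESeq2 and 3.98% with no filter. With replicates 2 and 3 alone, 14.1% fell and 13.9% rose, and without knockdown replicate 1, 6.81% and 7.31%. The counts of members thus moved along with those of all genes in part, and their shares were not tested against these. With 1 library left out, rises over all genes ranged from 176 to 1424 and falls from 195 to 1327. Total library size moved the median of all genes to 0.06.

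The labels give both groups the numbers 1 to 3, but deviations of same-numbered libraries correlated at -0.30, -0.08 and -0.10, so the numbers were not read as pairs. With the replicate block, 2 functional falls (RNU5F-1 and SCARNA1) and 0 functional rises, 0 rises among names ending in P, and 105 rises and 98 falls over all genes remained.

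Sign changes concerned names that had not passed. RNU4-2 was at -0.295 with replicates 2 and 3 alone, RNU6-8 at -0.203, RNU1-1 at -0.017 and SCARNA9 at 0.152. Under total library size RNU6-2 was at 0.029 and SCARNA9 at 0.016. SCARNA17 was at -0.008 under DESeq2 and with no filter and at -0.039 with the replicate block. With 1 library left out, values ranged from -0.304 to 0.842 for RNU4-2, from -0.259 to 0.044 for RNU6ATAC, from -0.198 to 0.482 for RNU6-8, from -0.457 to 0.283 for RNU6-2, from -0.143 to 0.065 for SCARNA9, from -0.083 to 0.089 for SCARNA15, from -0.260 to 0.042 for SCARNA3, from -0.227 to 0.023 for SCARNA8, from -0.187 to 0.272 for SCARNA20 and from -0.355 to 0.161 for SCARNA17. The cause was not tested.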

Other observations

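With replicates 2 and 3 alone, 24 of the 125 snRNA protein genes were lower and 9 higher (edgeR, adjusted p under 0.05), against 1 and 6 with all libraries. The lower genes then included SF3B1, SF3B3, PRPF8, SNRNP200 and PRPF4 of the U2, U5 and U4/U6 particles, SNRPD2 and SNRPD3 of the Sm ring, and LSM2, LSM3 and LSM5 of the U6 ring. All 6 genes that rose with all libraries were among the 9. That is 19.2% lower and 7.2% higher, against 14.1% lower and 13.9% higher of the 18915 genes tested in these libraries, and the difference between these shares was not tested.

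A search made after the values were seen asked which names with a mean of at least 10 CPM had 1 library at least 5-fold below or above each of the other 5. Of 10315 names, 3 met it, all with 1 library below: RNU4-2 and SNORD3A in control replicate 1, and SNORD97 in knockdown replicate 1. SNORD3A, a gene for the nucleolar U3 RNA, measured 2857, 3665 and 2955 CPM in knockdown libraries, against 93.9, 2647 and 5182 CPM in control libraries. SNORD97, a box C/D nucleolar RNA, measured 1.27, 11.96 and 8.64 CPM in knockdown libraries, against 21.9, 16.9 and 12.1 CPM in control libraries.

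Some U1, U6 and U7 names lie outside the rule that chose the members. The name U6 had 21, 30 and 32 counts in knockdown libraries, against 25, 31 and 4 in control libraries. The name U7 had 15, 26 and 37, against 18, 14 and 8. RNVU1-14, a variant U1 gene, had 321, 326 and 277 counts in knockdown libraries, against 303, 307 and 241 in control libraries, and the name U1 had 127, 111 and 80, against 108, 149 and 118.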
